A study of Mus musculus with 32 samples.

Results

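The genes described here are 10 immediate early transcription factors, chosen by name from the 31053 genes counted: the AP-1 genes Fos, Fosb, Jun and Junb, the stress-induced ATF gene Atf3, the zinc finger genes Egr1, Egr2, Egr3 and Egr4, and the orphan nuclear receptor gene Nr4a1. All 10 were present in the count matrix. They were followed across 13 cell types of mouse epididymal fat, the visceral fat pad of male mice, measured cell by cell with the 10x Genomics 3′ v3 assay. That assay counts unique molecular identifiers (UMIs), each standing for 1 captured transcript.

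Immediate early genes are transcribed within minutes of a growth factor, calcium, cytokine or stress signal, without new protein synthesis, and their mRNAs are short-lived. FOS and JUN proteins pair as the AP-1 dimer, which binds a short palindrome; EGR proteins bind GC-rich sites through zinc fingers, and their activity is held back by the NAB corepressors, which EGR proteins induce; NR4A1 acts without a known natural ligand. Their promoters are classically switched on by serum response factor at CArG boxes and by CREB-family factors at cAMP response elements. Enzymatic release of cells from tissue is itself a known inducer of these genes, so a level measured in dissociated cells holds both what the cells had in the tissue and what the preparation added. These files hold no undissociated sample to separate the parts.

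All mice were C57BL/6. They were fed for 16 weeks, some on normal diet and some on high fat diet, and then received diphtheria toxin for 7 days, controls included. They were wild type or CD169-DTR, a line in which the diphtheria toxin receptor is expressed from the CD169 (Siglec1) gene so that the toxin removes CD169-expressing macrophages; the series asked how that removal acts on the other cells of lean and obese fat. CD45+ and CD45- cells of the stromal vascular fraction (the cells of fat that are not adipocytes) were sorted apart, with most F4/80-high cells and Ly6C-high monocytes kept out, and mixed 1:1. The 32 records are 8 sequencing runs of each of 4 libraries, and how many mice went into each is not stated in the labels. The libraries are called ND-WT and ND-DTR (normal diet) and HFD-WT and HFD-DTR (high fat diet).

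With 1 library per group no difference between groups could be tested. Intervals below are 95% exact Poisson intervals for levels and exact binomial intervals for ratios; they cover the counting error and nothing of the variation between mice or preparations. Levels are CPM, the UMIs of a gene summed over the cells of 1 type in 1 library and scaled to 1000000 UMIs of those cells. Siglec1 itself went against the labels: over all kept cells it stood at 0.139 CPM (5 UMIs) in ND-WT, 3.5 CPM (113 UMIs) in ND-DTR, 1.12 CPM (51 UMIs) in HFD-WT and 3.04 CPM (191 UMIs) in HFD-DTR, higher in both libraries labelled DTR, although the sort kept out most of the cells that should express it. Every direction below therefore rests on the labels as given. The files hold 22703 barcodes with 33390225 to 64766718 UMIs per library; 19335 cells were kept, 17165 of them in the 13 types, with a median of 6148 to 9155 UMIs per cell. A further 9.36% of kept cells met no type's marker rule.

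Some barcodes occurred in more than 1 library. Of the barcode sequences, 298 were shared by at least 2 libraries, and 292 cells were shallow copies, with under 10% of the UMIs of the same barcode in another library. ND-WT held 237 of them, with a median of 578 UMIs against 42915 for the deepest copy. In that library 84 fibroblast-like and 52 macrophage-like cells were such copies, so values of ND-WT are given without them where they matter.

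The DNA just upstream of the start of Egr4 is shown because Egr4 is the member whose level differed most between the libraries. It is the 250 bases before the start in RefSeq's GRCm38.p6 annotation (chr6:85513590-85513839, minus strand), which overlap no annotated exon; capitals mark the core of the cAMP response element, TGACG or its reverse complement CGTCA.

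Egr4 upstream: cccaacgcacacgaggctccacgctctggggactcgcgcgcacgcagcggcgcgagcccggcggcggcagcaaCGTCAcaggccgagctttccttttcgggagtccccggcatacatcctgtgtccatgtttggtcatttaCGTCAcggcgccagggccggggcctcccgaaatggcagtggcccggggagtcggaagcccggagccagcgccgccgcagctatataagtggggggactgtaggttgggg

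Windows of 30 bases around a match show the same letters in other members, and the CArG box in Egr2, the other EGR gene that differed in fibroblast-like cells. Each is read on the gene's own strand of GRCm38.p6, with the match in capitals. They lie at chr10:67537787-67537816 (plus strand, Egr2), chr12:85473811-85473840 (plus strand, Fos), chr7:19310089-19310118 (minus strand, Fosb) and chr15:101266793-101266822 (plus strand, Nr4a1).
Egr2 CArG box: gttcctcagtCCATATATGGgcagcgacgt
Fos CRE core: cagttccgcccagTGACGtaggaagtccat
Fosb CRE core: atggagttgcgggTGACGcaagcgcggggg
Nr4a1 CRE core: gcccctctccatgCGTCAcggagcgcttaa

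Promoter windows, from 250 bases before to 50 after a start, were found for 8 of the 10 members, all but Egr1 and Egr3. The core TGACG, searched on both strands and contained in the full element TGACGTCA, was present in 7 of the 8 (Fos, Fosb, Junb, Egr2, Egr4, Atf3 and Nr4a1) and in 23.05% of the 27025 genes with a window. The full TGACGTCA was in none of the 8 and in 2.03% of genes. The CArG box was found in 1 of the 8, Egr2, and in 1.81% of genes. An AP-1 site, TGANTCA, was in none of the 8 and in 8.97% of genes. The EGR site, GCGTGGGCG or GCGGGGGCG on either strand, was in 2 of the 8, Fosb and Nr4a1, and in 3.93% of genes. These are matches of letters and were not tested against binding. Other spellings of these elements, and DNA outside the windows, were not searched, so a count of none does not show that a promoter lacks the element.

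Cell types were assigned cell by cell from fixed marker genes, and are called fibroblast-like, macrophage-like and so on. Among the markers that the rule used, Dcn was found in 99.7% of fibroblast-like cells, Upk3b in 99.0% of mesothelial-like cells, Cldn5 in 99.4% of vascular endothelial-like cells and Cd68 in 96.7% of macrophage-like cells. In a clustering made without the members, 87.3% of the typed cells lay in a cluster carrying the same name. A type is left out of a library where it had under 50 cells; this removed endothelial-like cells of HFD-DTR (15 cells), mesothelial-like cells of HFD-WT (30), neutrophil-like cells of HFD-WT (36) and migratory dendritic-like cells of ND-DTR (34).

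Structural cells carried far more immediate early RNA than immune cells. The 10 genes together made up a median of 22051 CPM in mesothelial-like cells, the lining of the fat pad (range over libraries 14634 to 22697). Fibroblast-like cells followed at 16287 CPM (14221 to 17387) and vascular endothelial-like cells at 13529 CPM (13193 to 13617). Of the immune types, group 2 innate lymphoid-like cells (ILC2-like) were highest at 7905 CPM (7011 to 9723), then macrophage-like cells at 5978 CPM (3665 to 8884) and neutrophil-like cells at 5405 CPM (4750 to 5511). T-like, monocyte-like, type 2 dendritic-like (cDC2-like), NK-like, type 1 dendritic-like (cDC1-like), migratory dendritic-like and B-like cells lay between 2936 and 1788 CPM. The ranges of neighbours in this order did not overlap in 3 places: fibroblast-like above endothelial-like, endothelial-like above ILC2-like, and neutrophil-like above T-like cells. The other neighbours were not separated.

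**Figure D1:**
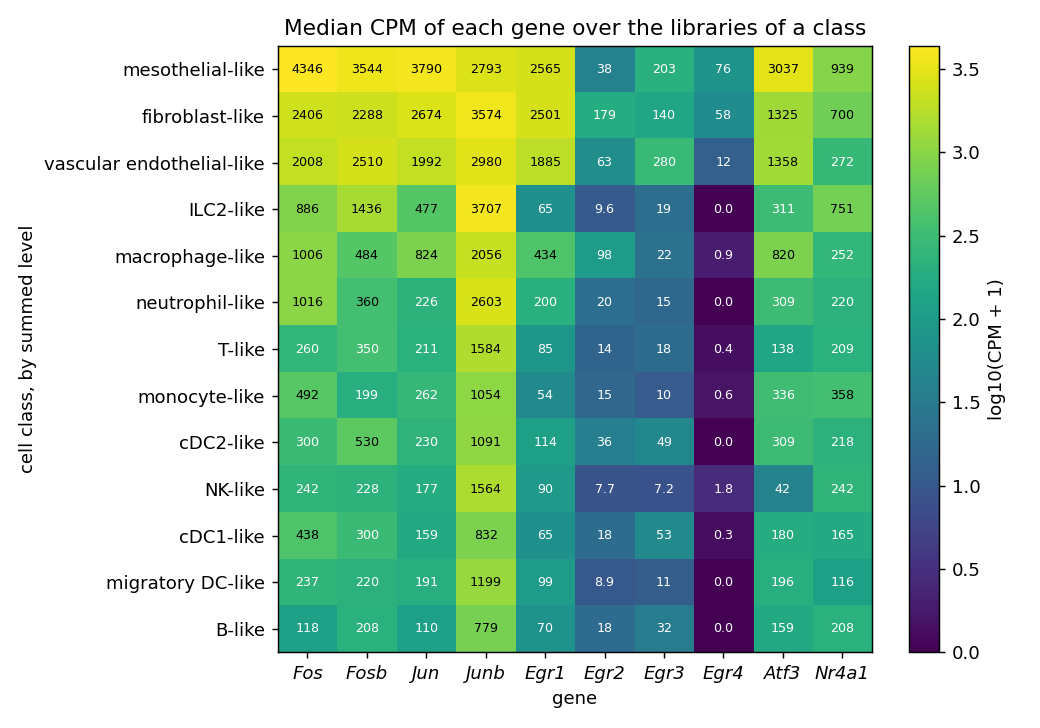
Median level of each of the 10 genes (columns) in each of the 13 cell types (rows), as CPM printed in the cell and log10(CPM + 1) by colour, over the libraries with at least 50 cells of the type. Mesothelial-like, fibroblast-like and vascular endothelial-like cells are the highest rows in sum (22051, 16287 and 13529 CPM), and Egr4 is near 0 in the immune types.

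The mixture of members differed between types. Junb, a JUN protein that activates weakly and can oppose JUN, was the leading member of every type of ND-WT but mesothelial-like cells, where Fos led. It gave 46.5% of the members' UMIs in B-like cells, 56.3% in T-like, 61.6% in NK-like and 50.2% in ILC2-like cells of that library. The other immune types gave 40.5% (cDC2-like) to 51.8% (neutrophil-like). Fibroblast-like cells gave 24.6% and endothelial-like cells 22.6%. ILC2-like cells had the highest Junb levels of the immune types, at 3518 CPM in ND-WT, 3813 in ND-DTR, 5220 in HFD-WT and 3601 in HFD-DTR. These overlapped the fibroblast-like levels of 3291 to 3884 CPM. ILC2-like cells also held 643 to 822 CPM of Nr4a1, a range that overlapped the 563 to 782 CPM of fibroblast-like cells, while their Egr1 level was 32.1 to 77.9 CPM against 1991 to 2839 CPM in fibroblast-like cells. Endothelial-like cells had the highest Egr3 of the 3 structural types, at 280 CPM in ND-WT, 358 in ND-DTR and 225 in HFD-WT. In neutrophil-like cells Junb (2472 to 2857 CPM) and Fos (964 to 1026 CPM) led, at median depths of only 785 to 1474 UMIs per cell.

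Fibroblast-like cells, which in fat include the adipocyte progenitors, gave the largest difference of any member. Egr4, which encodes the fourth EGR zinc finger protein (ENSMUSG00000071341, chromosome 6, 85511121 to 85513589, minus strand, GRCm38), stood at 5.76 CPM (60 UMIs) in ND-WT, 111 CPM (1625 UMIs) in ND-DTR, 0.884 CPM (18 UMIs) in HFD-WT and 140 CPM (5653 UMIs) in HFD-DTR. Both libraries labelled DTR were thus far above both labelled WT. The log2 ratio of DTR to WT under the normal diet was 4.27 (interval 3.90 to 4.67, 19.3-fold); under the high fat diet it was 7.31 (6.64 to 8.06, 158-fold). Without the shallow copies ND-WT held 28 Egr4 UMIs at 2.7 CPM, and the normal diet ratio was 5.37 (4.83 to 5.96, 41.2-fold).

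The Egr4 transcripts sat in few cells. An Egr4 UMI was found in 1.51% of fibroblast-like cells of ND-WT (17 of 1123), 3.94% of ND-DTR (44 of 1118), 0.447% of HFD-WT (8 of 1789) and 11.6% of HFD-DTR (326 of 2806). The same share in NK-like cells, taken as a measure of free RNA since Egr4 stood at 0 to 4.55 CPM there, was 0 to 1.83%, at median depths of 2998 to 3820 UMIs per cell against 9609 to 12972 in fibroblast-like cells. Thinned to 2000 UMIs per cell, the fibroblast-like shares were 0.394%, 1.94%, 0.177% and 5.7% in the same order, and the NK-like shares 0 to 1.42%. The ND-WT and HFD-WT shares lay within the NK-like range. That range pools the libraries, however, and free RNA can differ between them. It therefore cannot show whether the shares of ND-WT and HFD-WT were free RNA, which was not tested.

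Cells with at least 10 Egr4 UMIs numbered 2 in ND-WT, 19 in ND-DTR, 0 in HFD-WT and 117 in HFD-DTR. In the libraries labelled DTR these cells held 94.8% (ND-DTR) and 89.7% (HFD-DTR) of the Egr4 UMIs. In ND-DTR a single cell of 43599 UMIs carried 625 of the 1625, and without it the level was 68.7 CPM. The top cell of HFD-DTR carried 319, and without it the level was 132 CPM. Averaging cells at equal weight, where the shallow copies of ND-WT count as much as deep cells, gave log2 ratios of 0.53 (normal diet) and 7.02 (high fat diet). Of the cells with at least 10 Egr4 UMIs, 7 of 19 in ND-DTR and 3 of 117 in HFD-DTR had a barcode shared with another library. With all shared barcodes left out the ratios were 4.08 and 7.26.

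**Figure D2:**
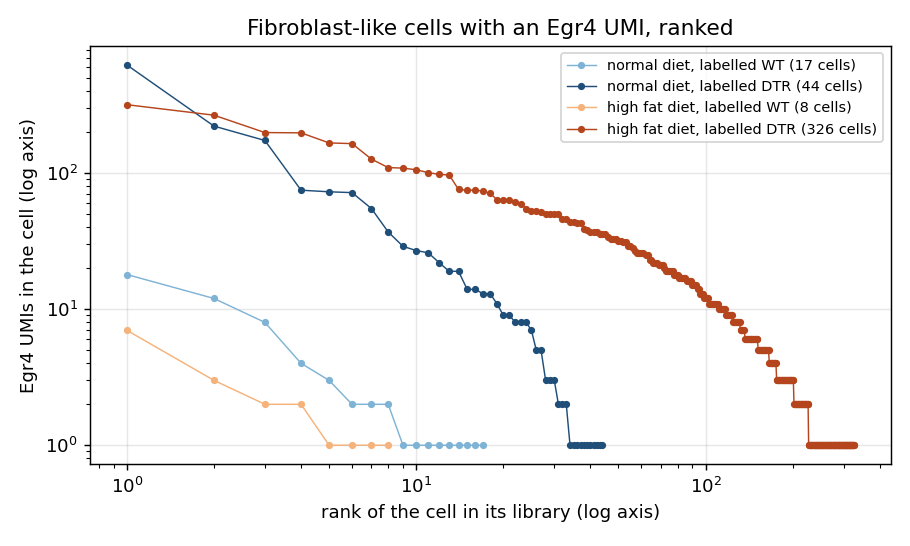
Egr4 UMIs per fibroblast-like cell on a log axis, for each cell with at least 1, against the rank of the cell within its library, also on a log axis; each library is 1 line. HFD-DTR has 326 such cells reaching 319 UMIs and ND-DTR 44 reaching 625, while ND-WT has 17 and HFD-WT 8.

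One cluster held most of the Egr4 RNA. Cluster 17, led by the clock output gene Dbp, the clock repressor gene Nr1d1, H2-M2, the chemokine gene Cxcl2 and Hist1h4i, had 55 cells in ND-DTR at 1302 CPM of Egr4 (interval 1236 to 1371) and 338 cells in HFD-DTR at 511 CPM (496 to 527). It carried 89.0% and 73.8% of the fibroblast-like Egr4 UMIs of those libraries. ND-WT had 17 cells there with a median of 572 UMIs, and HFD-WT had 1. Outside cluster 17 the levels were 2.89 CPM in ND-WT, 13.2 in ND-DTR, 0.887 in HFD-WT and 46 in HFD-DTR, and the log2 ratios were 2.19 (1.63 to 2.80) and 5.70 (5.03 to 6.46).

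Among the other clusters with at least 20 cells in both high fat diet libraries, HFD-DTR was above HFD-WT in clusters 0, 5, 10 and 14, the intervals overlapped in cluster 8 (1.22 and 7.99 CPM), and cluster 26 had 0 Egr4 UMIs in both. The cycling cells of cluster 30 (Top2a, Mki67) stood at 124 CPM in HFD-DTR (78 cells) and had 0 UMIs in the 4 cells of HFD-WT. In cluster 0 (led by Rasl11a, Fbn2 and the matrix gene Ltbp2) Egr4 had 0 UMIs in 87 cells of HFD-WT, with an upper limit of 2.49 CPM, and 39.5 CPM in 1529 cells of HFD-DTR. In cluster 10 (Il1rl1, Sfrp4, Serpinb2) it had 0 UMIs in 42 cells of HFD-WT and 53.4 CPM in 605 cells of HFD-DTR. In cluster 14, led by the progenitor marker Pi16 with Igfbp5 and Sema3c, it stood at 10.2 CPM in ND-WT, 60.4 in ND-DTR, 0.799 in HFD-WT and 40.6 in HFD-DTR. In cluster 5, led by the interferon-induced genes Rsad2 and Ifit1, the order was kept in high fat diet (6.95 and 36.9 CPM), while in normal diet the intervals overlapped (1.24 and 5.7 CPM). Normal diet intervals also overlapped in cluster 1 (0.439 CPM in ND-WT and 0.669 in ND-DTR) and cluster 8 (0 UMIs in ND-WT and 2.96 CPM in ND-DTR). Of the clusters with at least 20 cells in both normal diet libraries, only cluster 14 had intervals that did not overlap. Clusters were not evenly filled: cluster 1 (Inmt, Hsd11b1) held 64.1% of the fibroblast-like cells of ND-WT and 12.3% of ND-DTR.

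**Figure D3:**
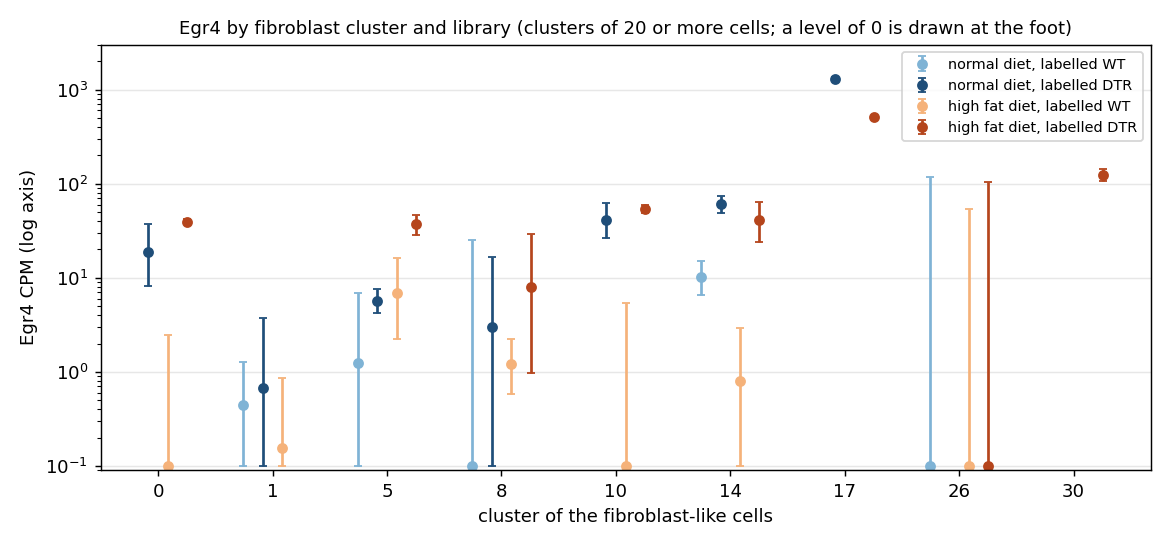
Egr4 level in CPM on a log axis for each fibroblast-like cluster with at least 20 cells in a library, 1 point per library with its 95% Poisson interval; points with 0 UMIs, and intervals reaching below the axis, are drawn at the foot. Cluster 17 is highest (1302 CPM in ND-DTR and 511 in HFD-DTR), and HFD-DTR lies above HFD-WT in clusters 0, 5, 10 and 14. The 17 cells of ND-WT in cluster 17 (1209 CPM) are under the limit of 20 cells and are not drawn.

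Outside ND-WT, Egr4-positive cells also carried more of several other members. With every cell thinned to 2000 UMIs, the 21 positive fibroblast-like cells of ND-DTR held a mean of 12 Jun UMIs against 3.65 in the rest, 9.76 Fos UMIs against 3.68, 12.4 Egr1 against 5.76 and 1.38 Egr2 against 0.43. The 156 positive cells of HFD-DTR held 9.55 Jun UMIs against 6.49, 8.04 Fos against 6.03, 5.65 Egr1 against 4.2 and 1.13 Egr2 against 0.849, while Egr3 was 0.288 against 0.349. The positive cells were deeper before thinning (median 17792 against 12386 UMIs in ND-DTR, 20005 against 12847 in HFD-DTR), and the part of depth in these contrasts was not tested. The 3 positive cells of HFD-WT held more Jun (13.7 against 5.85), Fos (13 against 5.69), Junb (18.3 against 7.73) and Atf3 (6.67 against 3.25) than the rest. The 4 positive cells of ND-WT held less Jun (1.75 against 4.22), Egr1 (2.75 against 5.9), Fosb (4.25 against 6.03) and Atf3 (0.75 against 2.17) than the rest.

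Egr2, known for its roles in myelination and in early adipogenesis, was also higher in both libraries labelled DTR in fibroblast-like cells, and was spread over many more cells than Egr4. It stood at 108 CPM in ND-WT, 245 in ND-DTR, 113 in HFD-WT and 394 in HFD-DTR, so the libraries labelled WT were close together and below both labelled DTR. The log2 ratio under the normal diet was 1.19 (1.09 to 1.28); under the high fat diet it was 1.80 (1.74 to 1.87). An Egr2 UMI was present in 17.2% of the thinned cells of ND-WT, 31.3% of ND-DTR, 16.0% of HFD-WT and 49.0% of HFD-DTR, and the top 1% of cells held only 5.43% of the Egr2 UMIs of HFD-DTR, against 53.2% for Egr4. Scaling every cell equally gave 0.96 and 2.00 for the Egr2 ratios. Within clusters Egr2 was higher in HFD-DTR than in HFD-WT in cluster 0 (183 CPM in HFD-WT and 497 in HFD-DTR), 5 (100 and 440), 8 (131 and 356), 10 (166 and 349) and 14 (64.8 and 189). In normal diet it was higher in ND-DTR in clusters 1 (99.4 CPM in ND-WT and 191 in ND-DTR), 5 (209 and 241) and 14 (87.9 and 230), and lower in cluster 8 (244 and 210). Egr2 and Egr4 were the only members past 2-fold in fibroblast-like cells under summed CPM, 2 of 10 in each diet, and both were higher. Of all genes measured there, 6.64% (normal diet) and 16.8% (high fat diet) were past 2-fold higher, and 3.1% and 3.72% lower.

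The AP-1 genes of fibroblast-like cells differed less between the labels. Fosb, a FOS-family partner of JUN proteins, had the largest difference of them and was lower in both labelled DTR: 2854 CPM in ND-WT, 1815 in ND-DTR, 2762 in HFD-WT and 1772 in HFD-DTR, log2 ratios of -0.65 and -0.64. The cells sat in different clusters, however: cluster 8 held 40.9% of those of HFD-WT and cluster 0 held 54.5% of those of HFD-DTR. Within clusters Fosb was not lower in HFD-DTR in cluster 0 (1881 CPM in HFD-WT and 2122 in HFD-DTR), 5 (1608 and 1879), 8 (2983 and 3093) or 10 (1537 and 1564), and was lower in cluster 14 (2544 and 1323). In normal diet it was lower in ND-DTR in clusters 1 (3230 CPM in ND-WT and 2672 in ND-DTR), 5 (2055 and 1744), 8 (4343 and 2419) and 14 (2003 and 1774). Fos stood at 1762, 1993, 2818 and 3144 CPM in that order, and Jun, its main partner, at 2264, 2082, 3083 and 3512 CPM, with both high fat diet libraries above both normal diet libraries. Junb stayed between 3291 and 3884 CPM, and Egr1 between 1991 and 2839 CPM with the normal diet libraries higher. Atf3, a stress-induced repressor of the ATF family, stood at 1060 CPM in ND-WT, 893 in ND-DTR, 1590 in HFD-WT and 2209 in HFD-DTR, higher in high fat diet for either label. Its log2 ratio of high fat to normal diet was 1.31 (1.28 to 1.33) in the libraries labelled DTR. Nr4a1 lay between 563 and 782 CPM and Egr3 between 116 and 154 CPM. Heat shock genes, which handling of cells can also induce, summed to 6004 CPM in ND-WT, 5707 in ND-DTR, 7258 in HFD-WT and 6641 in HFD-DTR. Their median log2 ratio of high fat to normal diet was 0.16 for the label WT and -0.03 for DTR. The part of handling in these levels was not tested.

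**Figure D4:**
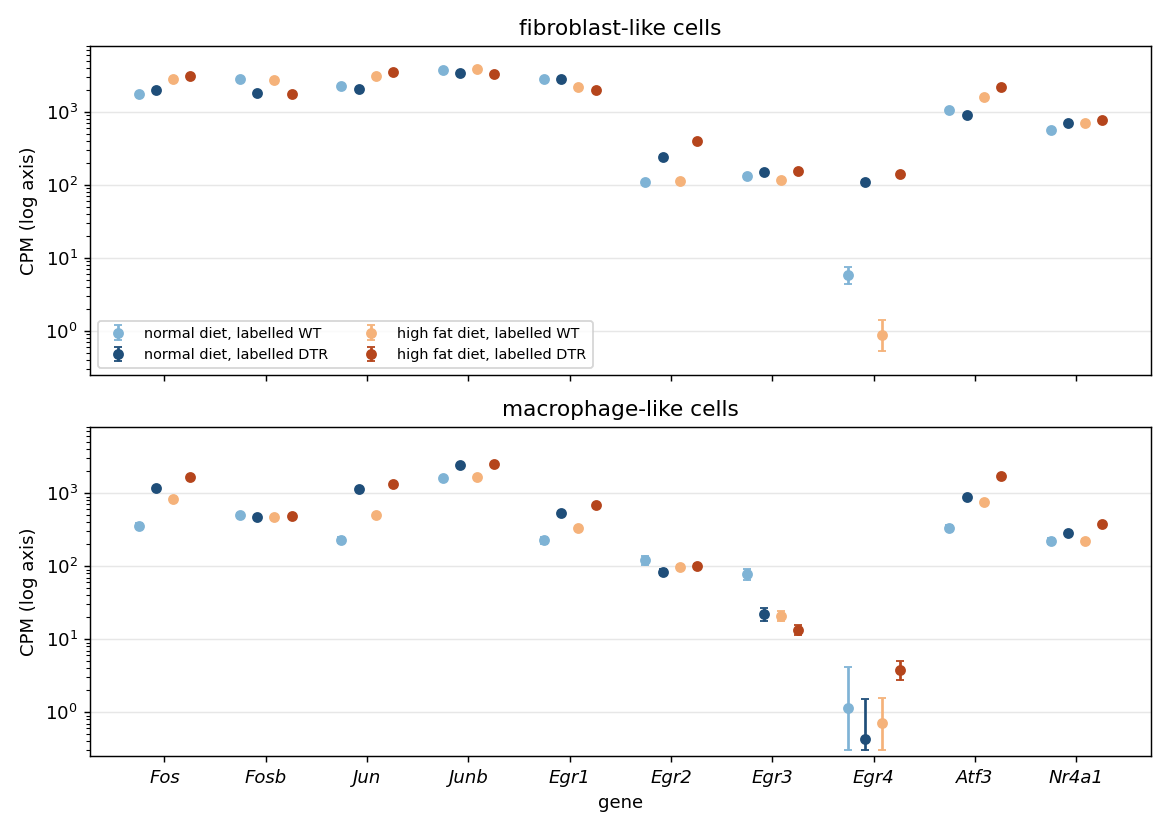
Level of each member in CPM on a log axis in fibroblast-like and macrophage-like cells, 1 point per library with its 95% Poisson interval. In fibroblast-like cells the libraries separate by label for Egr4 (5.76 and 0.884 against 111 and 140 CPM), Egr2, Egr3, Fosb and Junb, the last 2 lower in DTR; in macrophage-like cells Jun (230 and 503 against 1145 and 1328 CPM), Fos, Egr1, Atf3, Junb and Nr4a1 (222 and 223 against 282 and 378 CPM) are higher in both libraries labelled DTR.

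The other structural cells did not share the fibroblast pattern for Egr2. Mesothelial-like cells held Egr4 at 47.1 CPM in ND-WT, 76.4 in ND-DTR and 148 in HFD-DTR, and Egr2 at 64.8, 35.6 and 38.1 CPM. Among them 0 of 10 members were past 2-fold between the labels in normal diet, where 2.9% of genes were higher and 1.8% lower. From ND-DTR to HFD-DTR, Egr3 was lower by a log2 ratio of -1.70 and Fosb went from 3544 to 1769 CPM, but 18.33% of the HFD-DTR mesothelial-like cells lay near the limit of the marker rule, against 1.25% in ND-DTR. Endothelial-like cells of the normal diet were close between the labels for all 10 genes, for example Jun at 1992 and 1957 CPM and Fosb at 2510 and 2577 CPM. Nr4a1 was their largest difference among members above 100 CPM, 184 CPM in ND-WT, 272 in ND-DTR and 320 in HFD-WT, with a log2 ratio of 0.56 between the labels. Egr4 there was 10.8 to 15.6 CPM in the 3 libraries measured.

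Macrophage-like cells showed a different set of members. Jun stood at 230 CPM in ND-WT, 1145 in ND-DTR, 503 in HFD-WT and 1328 in HFD-DTR, higher in both libraries labelled DTR (log2 ratios 2.32, interval 2.17 to 2.47, and 1.40, 1.35 to 1.45). Fos stood at 357, 1167, 844 and 1659 CPM in the same order (1.71 and 0.98), Egr1 at 226, 536, 332 and 688 CPM (1.25 and 1.05), and Atf3 at 336, 874, 766 and 1728 CPM (1.38 and 1.17). Junb, at 1589, 2436, 1677 and 2497 CPM, was higher by 0.62 and 0.57, and Nr4a1, at 222, 282, 223 and 378 CPM, by 0.35 and 0.76. Fosb was nearly level, at 470 to 508 CPM, and Egr2, which also marks alternatively activated macrophages, was at 83.6 to 120 CPM with no order by label. Egr3 went the other way: 77.1 CPM in ND-WT, 22.1 in ND-DTR, 21 in HFD-WT and 13.5 in HFD-DTR. Egr4 was near 0 in all, with 6 UMIs in HFD-WT (0.715 CPM) and 45 in HFD-DTR (3.8 CPM). Past 2-fold higher were 4 of 9 members measured in normal diet, against 15.3% of all genes, and 4 of 10 in high fat diet, against 11.8%; 1 member in normal diet, Egr3, was past 2-fold lower, against 3.87% of genes, and 0 in high fat diet, against 3.19%.

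These macrophage-like differences in normal diet came with a different make-up of the cells. Cluster 6 (led by Retnla, a marker of alternative activation, and Lyz1) held 59.3% of the macrophage-like UMIs of ND-WT and 3.2% of ND-DTR. Cluster 7 (led by Mfge8, which bridges dying cells to phagocytes, with Mmp9 and Ctsk) held 49.0% of those of ND-DTR, from 73 cells with a median of 29320 UMIs; its 58 cells in ND-WT had a median of 739. Within cluster 6 Jun was 229 CPM in ND-WT and 235 in ND-DTR, Fos 310 and 477 CPM and Egr1 261 and 491 CPM, with 12 cells in ND-DTR. Within cluster 2, whose leading genes include the monocyte genes Plac8, Chil3 and Ly6c2, Jun was 384 and 383 CPM and Egr1 135 and 263 CPM, with 10 cells in ND-WT. Within the cycling cells of cluster 18 (Top2a, Birc5; 15 and 20 cells) Jun was 78 and 376 CPM, Fos 205 and 413, Egr1 94.4 and 504 and Atf3 148 and 509. Within cluster 7 Jun was 369 and 1958 CPM and Fos 553 and 1638 CPM. Scaling every cell equally brought the normal diet ratios to 0.66 for Jun, 0.56 for Fos, 0.48 for Egr1 and 0.09 for Atf3. Leaving out only the shallow copies gave normal diet ratios of 2.51 for Jun, 1.81 for Fos, 1.31 for Egr1 and 1.45 for Atf3. Leaving out all cells with a shared barcode, deep ones included, gave 1.52, 1.37, 0.70 and 0.55 in the same order. It left the high fat diet ratios at 1.37 for Jun, 1.02 for Egr1 and 1.15 for Atf3.

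In high fat diet the difference was present within each of the 4 clusters found in both libraries. Jun was 446 CPM in HFD-WT and 802 in HFD-DTR in cluster 2, 217 and 583 in cluster 6, 580 and 1782 in cluster 7, and 388 and 759 in cluster 18. Fos, Egr1 and Atf3 were also higher in HFD-DTR in all 4 of these clusters, for example Atf3 at 895 and 2143 CPM in cluster 7. Scaling every cell equally left Jun at 0.96, Egr1 at 0.60 and Atf3 at 0.90, all under 2-fold. Cluster 31, led by Cd209f, Ccl8 and Cd209d and holding 83 macrophage-like cells of HFD-WT and 17 of ND-WT, had none in either library labelled DTR. Its Jun level in HFD-WT was 1333 CPM, above that of the other HFD-WT clusters named here. Heat shock genes in macrophage-like cells summed to 4559 CPM in ND-WT, 4949 in ND-DTR, 5529 in HFD-WT and 4373 in HFD-DTR, with no order by label.

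Monocyte-like cells gave an Nr4a1 difference of the opposite sign. Nr4a1, needed for the Ly6C-low monocyte subset, stood at 453 CPM in ND-WT, 197 in ND-DTR, 470 in HFD-WT and 263 in HFD-DTR, lower in both labelled DTR (log2 ratios -1.20 and -0.84). The sort removed Ly6C-high monocytes, and monocyte-like cells numbered 74 in each library labelled WT and 254 and 347 in those labelled DTR, so a different mix of subsets and a different level per cell cannot be told apart. Cluster 23 held most monocyte-like cells of the libraries labelled WT (75.7% and 55.4%) and cluster 2 those of the libraries labelled DTR (71.3% and 69.5%). With types taken from clusters the normal diet ratio was -0.32. Atf3 followed diet in these cells, at 125 CPM in ND-WT and 173 in ND-DTR against 500 in HFD-WT and 634 in HFD-DTR.

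Counted over all cell types, more pairs were past 2-fold between the labels in high fat diet than in normal diet. Of the 80 pairs of a member and a cell type measured there, 26 were past 2-fold higher in HFD-DTR, against 8.86% of all gene and cell type pairs, and 0 were past 2-fold lower, against 3.37%. In normal diet 7 of 98 pairs were higher in ND-DTR, against 5.27%, and 6 lower, against 3.19%. Of the 26, cDC2-like cells gave 7 of 9 members (7.76% of genes), migratory dendritic-like cells 5 of 7 (7.78%), B-like cells 4 of 7 (1.46%), macrophage-like cells 4 of 10 and cDC1-like cells 3 of 9 (2.79%), with fibroblast-like cells 2 and ILC2-like cells 1 of 6 (3.03%). NK-like, T-like and monocyte-like cells gave 0, where 4.76%, 1.87% and 9.57% of genes were past 2-fold higher. The median log2 ratio over measured members was 1.54 in cDC2-like cells, against 0.16 over all genes there, and 1.61 in migratory dendritic-like cells, against 0.15. It was 1.17 in B-like cells, against -0.09. With every cell scaled equally the high fat diet counts were 19 higher and 1 lower.

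**Figure D5:**
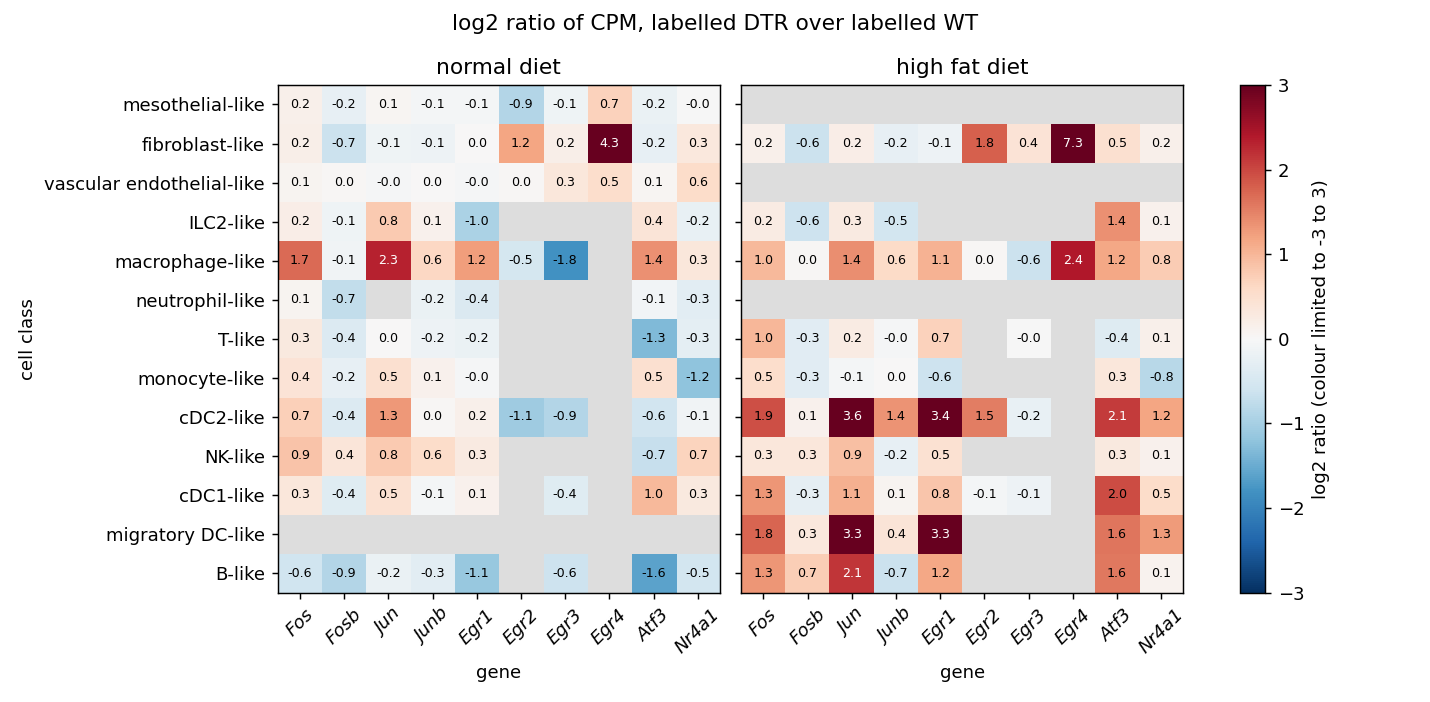
Log2 ratio of labelled DTR to labelled WT for each member in each cell type, by colour (limited to -3 to 3) with the value printed, normal diet and high fat diet side by side; grey cells were not measured (under 50 UMIs over the 2 libraries, or under 50 cells in either). In high fat diet the cDC2-like row is the most strongly higher (Jun 3.58, Egr1 3.36), and Egr4 in fibroblast-like cells is the largest ratio in both diets (4.27 and 7.31).

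In cDC2-like cells, dendritic cells that present antigen to CD4 T cells, Jun stood at 127 CPM in ND-WT, 312 in ND-DTR, 147 in HFD-WT and 1763 in HFD-DTR. HFD-DTR alone was high, by a log2 ratio of 3.58 (3.39 to 3.78) over HFD-WT. Egr1 stood at 108, 121, 79.2 and 813 CPM (3.36 in high fat diet), Fos at 188, 308, 293 and 1124 CPM (1.94), Atf3 at 287, 193, 331 and 1408 CPM (2.09) and Junb at 1078, 1104, 1052 and 2674 CPM (1.35). Nr4a1 stood at 197, 184, 238 and 543 CPM (1.19). The group was small, with 65 cells in HFD-DTR against 217 in HFD-WT, its largest cell gave 9.55% of its UMIs, and 18.46% of the cells lay near the limit of the marker rule. With types taken from clusters instead of cell by cell, Jun gave 1.72 and Egr1 1.88, but Atf3 gave 0.99, Nr4a1 0.37 and Junb 0.16.

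Migratory dendritic-like cells (Ccr7, Fscn1) gave the same leading genes. Jun was 191 CPM in ND-WT, 58 in HFD-WT and 577 in HFD-DTR, and Egr1 98.8, 29 and 281 CPM, so that HFD-WT was lowest and HFD-DTR highest. The log2 ratios between the labels in high fat diet were 3.31 for Jun, 3.28 for Egr1, 1.75 for Fos, 1.61 for Atf3 and 1.28 for Nr4a1, from 51 and 57 cells. Scaling every cell equally gave 0.93 for both Atf3 and Nr4a1, and thinning gave 0.89 for Atf3, all under 2-fold. Jun, Fos, Egr1 and Nr4a1 of these cells had too few UMIs to be measured after thinning or with a minimum of 200 UMIs. In cDC1-like cells, which cross-present antigen to CD8 T cells, Fos was 337, 431, 445 and 1121 CPM over the 4 libraries (1.33 in high fat diet), Jun 98.8, 136, 182 and 383 CPM (1.07) and Atf3 111, 217, 143 and 556 CPM (1.96). TMM scaling gave 0.97 for Jun there. B-like cells gave Jun at 114, 98.8, 107 and 477 CPM (2.15), and 1.34 with every cell scaled equally. Their Fos ratio of 1.32 was 0.48 with that scaling.

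RNA from other cells was also found in these types. Collagen and Dcn transcripts (Col1a1, Col3a1, Dcn), which fibroblasts make, summed to 206 CPM in the cDC2-like, 281 CPM in the migratory dendritic-like and 199 CPM in the B-like cells of HFD-DTR, and C1q transcripts, which macrophages make, to 92, 202 and 0 CPM. If those transcripts came in with the average RNA of fibroblast-like and macrophage-like cells of the same library, they would bring 24.2 and 44.1 CPM of Jun into cDC2-like cells, out of 1763 CPM. They would bring 33.1 and 96.5 CPM into migratory dendritic-like cells, out of 577, and 23.4 and 0 CPM into B-like cells, out of 477. In migratory dendritic-like cells the same estimate for Atf3 was 20.8 and 126 CPM out of 598. In HFD-WT the collagen and Dcn sum was 114.5 CPM in cDC2-like, 111.5 in migratory dendritic-like and 274.4 in B-like cells. The C1q sum there was 24.9, 24.5 and 74.5 CPM. From HFD-WT to HFD-DTR both sums were thus higher in the dendritic types and lower in B-like cells. Thinned to 2000 UMIs, 18.0% of cDC2-like cells of HFD-WT and 46.8% of HFD-DTR had a Jun UMI.

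Lymphoid cells otherwise differed less between the labels. In NK-like cells of the normal diet Fos (177 and 322 CPM), Jun (129 and 221) and Junb (1328 and 1952) were higher in ND-DTR, by log2 ratios of 0.86, 0.78 and 0.56. In T-like cells Atf3 was 151 CPM in ND-WT and 60.2 in ND-DTR, a log2 ratio of -1.33, and 162 and 124 CPM in high fat diet. The T-like cells of ND-WT were mainly in cluster 15 (49.6%) and those of ND-DTR in cluster 11 (44.7%); with types taken from clusters the ratio was -1.32. In ILC2-like cells Atf3 was 354 CPM in HFD-WT and 918 in HFD-DTR (1.38), from 101 and 64 cells.

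The comparison of diets used the same 4 libraries as the comparison of labels, so the values are not separate evidence. From ND-WT to HFD-WT, 7 of 93 pairs were past 2-fold higher (2.18% of all pairs) and 7 lower (2.03%); scaling every cell equally left 1 higher and 7 lower. The higher ones were Atf3 (1.19), Fos (1.24) and Jun (1.13) in macrophage-like cells, Atf3 (2.00), Jun (1.05) and Egr1 (1.08) in monocyte-like cells and Egr2 in cDC1-like cells (1.09). The lower ones were Egr4 in fibroblast-like cells (-2.70, and -1.61 without the shallow copies), Egr3 in macrophage-like (-1.88) and cDC2-like cells (-1.24), Egr2 in cDC2-like cells (-1.16), and Jun (-1.72), Fos (-1.28) and Egr1 (-1.77) in migratory dendritic-like cells. From ND-DTR to HFD-DTR, 21 of 83 pairs were higher (5.15%) and 2 lower (3.13%).

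Atf3 was the member most often higher in high fat diet among the libraries labelled DTR. It was past 2-fold higher in 9 of 11 cell types there: fibroblast-like (1.31), monocyte-like (1.87), cDC1-like (1.36), cDC2-like (2.87), neutrophil-like (1.45), NK-like (1.41), T-like (1.04), ILC2-like (1.78) and B-like cells (2.57). Over all genes, the share past 2-fold higher in these 9 types was between 1.17% (T-like) and 8.51% (fibroblast-like). The lowest levels behind the 9 Atf3 ratios were in NK-like cells, 22.2 and 59.1 CPM. Fibroblast-like and macrophage-like RNA would bring an estimated 2.77 and 1.83 CPM into them in ND-DTR, and 19.9 and 10.2 in HFD-DTR. In T-like cells the estimates were 2.71 and 14.2 CPM out of 60.2, and 24.8 and 17.7 out of 124. With a minimum of 200 UMIs the neutrophil-like, NK-like, T-like, ILC2-like and B-like pairs were not measured. In mesothelial-like cells Atf3 went the other way, 3037 CPM in ND-DTR and 2352 in HFD-DTR.

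Other genes of the same families were read from lists. Over all genes measured in fibroblast-like cells 6.64% were past 2-fold higher and 3.1% lower in ND-DTR, with a median log2 ratio of 0.10, and 16.8% higher and 3.72% lower in HFD-DTR, with a median of 0.32. Of 18 other AP-1, MAF, BATF and CREB-family genes, 17 were measured in fibroblast-like cells in normal diet, with 1 higher and 0 lower in ND-DTR, and 18 in high fat diet, with 1 higher and 1 lower (Maff) in HFD-DTR. Both counts of higher genes are at or below the share over all genes, and the medians were -0.10 and 0.01. The higher one was Ddit3, the stress-induced partner of C/EBP proteins also called CHOP, in both diets: 47 CPM in ND-WT, 125 in ND-DTR, 67.5 in HFD-WT and 361 in HFD-DTR. Of 4 other NR4A, EGR-related and corepressor genes, Nab2 was past 2-fold higher in both diets, at 13.2, 34.8, 17.6 and 70 CPM, and Nr4a2 in high fat diet. Nab2 encodes a corepressor of EGR proteins, and its order over the libraries in fibroblast-like cells was that of Egr2. In macrophage-like cells Nab2 was also past 2-fold higher in both diets. Egr2 there was lower in ND-DTR (83.6 CPM) than in ND-WT (120 CPM). A link between these genes was not tested.

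Of 33 further immediate early genes measured in fibroblast-like cells, 5 were past 2-fold higher and 0 lower in normal diet, and 8 higher and 2 lower in high fat diet, against the shares of 6.64% and 16.8% higher over all genes. Their medians were 0.09 and 0.10. Klf10, a TGF-beta-induced Krüppel-like repressor, stood at 19.3 CPM in ND-WT, 71.3 in ND-DTR, 19.1 in HFD-WT and 155 in HFD-DTR (log2 ratios 1.89 and 3.02). Ier3, an early response gene of cell survival, stood at 397, 902, 686 and 1836 CPM (1.18 and 1.42). In macrophage-like cells the ratios of the same genes were 2.18 and 2.87 for Klf10, 2.72 and 2.62 for Ddit3, 1.06 and 1.96 for Nab2 and 0.96 and 1.76 for Ier3. In endothelial-like cells of the normal diet they were -0.18 for Klf10, -0.09 for Ddit3, 0.04 for Nab2 and 0.24 for Ier3.

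Feedback inhibitors of MAP kinase signalling, which limit the kinases that induce these genes, gave 1 of 12 higher (Dusp5) in fibroblast-like cells of the normal diet and 2 of 13 (Dusp6 and Dusp4) in high fat diet, near the shares of 6.64% and 16.8% over all genes. The medians were 0.10 and -0.14. Dusp6, the phosphatase of ERK, was 36.1 CPM in HFD-WT and 103 in HFD-DTR (1.51), and 32 and 42.7 CPM in normal diet (0.42). Dusp4 was 0.491 CPM in HFD-WT (10 UMIs) and 9.83 CPM in HFD-DTR (397 UMIs), a log2 ratio of 4.32 (3.43 to 5.39). Dusp8 in macrophage-like cells was 9.78 CPM in ND-WT, 38.4 in ND-DTR, 20.3 in HFD-WT and 64 in HFD-DTR. Of the heat shock genes, 0 of 12 were past 2-fold in either direction in fibroblast-like cells in either diet, and 0 of 11 and 0 of 12 in macrophage-like cells.

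Across the 48 sums of a cell type and a library, Jun and Egr1 followed each other most closely among the members (Pearson r of log2(CPM + 10) 0.92), then Jun and Fos (0.89). Junb and Egr3 gave the lowest value (0.25) and Nr4a1 and Egr3 the next (0.29). These sums share libraries and cell types, and the values are descriptions. Outside the members, the genes whose levels were most like the members' sum, among 5883 with a mean of at least 20 CPM, were Fosl1 (0.878), Gm17056 (0.867), Ifrd1 (0.864), Thra (0.863), Klf4 (0.846), Nckap1 (0.843), Prnp (0.842), Gadd45g (0.835), Btg2 (0.832) and Igfbp7 (0.831). Fosl1 encodes a further FOS-family protein.

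Within fibroblast-like cells the members did not all vary together. Over cells thinned to 2000 UMIs in the 4 libraries, Fos went with Jun at r of 0.62 to 0.76 and with Atf3 at 0.49 to 0.68, but with Nr4a1 at only -0.01 to 0.24, with Egr4 at 0.01 to 0.16 and with Egr3 at -0.16 to 0.09. Egr2 and Egr1 gave 0.01 to 0.21. The cells of a library share its preparation, and sparse counts lower such values for the members at low level. A fibroblast-like cell of 2000 UMIs held a median of 6 of the 10 members in ND-WT, ND-DTR and HFD-WT and 7 in HFD-DTR.

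Reads of Jun, Junb and Atf3 may include those of genes annotated over them on the opposite strand (Junos, Prdx2 and Gm24748), since the strand setting of the counting was not stated in the labels.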

How the data were processed

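The authors deposited a matrix of raw UMI counts by gene and cell barcode, made with Cell Ranger 3.1.0 on mm10 per the submitters' processing notes; barcode suffixes were matched to libraries by their order in the authors' aggregation table, and nothing else checks this. Cells were kept from 300 genes up and to 10% mitochondrial UMIs, and Scrublet doublets (0.83 to 1.31% of a library, against 5.4% multiplets per the labels) removed. Cells were typed by fixed markers; Leiden clusters (37, resolution 1.5) were computed without the members and lists. UMIs were summed per type and library and divided by all UMIs of those cells. A pair counted as past 2-fold needed 50 UMIs over both libraries and 50 cells in each. No test was possible with 1 library per group.

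Named were all members, of each list the 3 genes with the highest and the 3 with the lowest median ratio among those past 2-fold, and the 10 genes most like the members; Maff, Nr4a2, Dusp5 and cluster leaders were named after their values were seen. Members and lists were chosen with earlier results of these data known. Alternatives were other cell filters, doublets kept, equal scaling of cells, TMM scaling, other totals, thinning to 2000 UMIs, types from clusters and other UMI minimums. Leaving out shared barcodes, or only their shallow copies, was added after seeing the data. The ratio step was tested on simulated data. Python 3.11.15, numpy 2.4.6, pandas 2.3.3, scipy 1.17.1, scanpy 1.11.5, leidenalg 0.10.2, matplotlib 3.10.9, R 4.3.3 and edgeR 4.0.16 (TMM factors only) were used. Promoter sequences are from RefSeq's GRCm38.p6 and gene positions from a GRCm38 annotation.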

Additional observations from a re-analysis of the deposited data

Results flagged for a closer look

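For 3 pairs of a gene and a cell type the log2 ratio of labelled DTR to labelled WT had opposite signs in the 2 diets, past 2-fold in each. Egr2 in cDC2-like cells was -1.07 under normal diet (interval -1.91 to -0.33, 16 UMIs in ND-DTR) and 1.54 under high fat diet. With every cell scaled equally the normal diet value was -0.81, under 2-fold. Neither Egr2 value could be measured after thinning, with types from clusters or with a minimum of 200 UMIs. Atf3 in B-like cells was -1.60 under normal diet (interval -2.33 to -0.96, 20 UMIs in ND-DTR) and 1.59 under high fat diet. Egr1 in B-like cells was -1.13 under normal diet (interval -2.22 to -0.21, 10 UMIs in ND-DTR) and 1.17 under high fat diet. With every cell scaled equally Egr1 was 0.79 in either diet. These differences were not tested, as each group is 1 library, and the B-like cells numbered 66 in ND-DTR and 60 in HFD-DTR.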

How the results depend on the processing

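The count of member and cell type pairs past 2-fold between labels in normal diet was 13, and became 7 with every cell scaled to the same total and 24 with no UMI minimum. In high fat diet it was 26, and became 13 in cells thinned to 2000 UMIs and 17 with a minimum of 200 UMIs. Between diets it was 14 for libraries labelled WT, and became 8 with equal scaling, 7 thinned, 9 with types from clusters and 8 with a minimum of 200 UMIs; for those labelled DTR it was 23, and became 15 thinned and 35 with no UMI minimum. Fewer pairs could be measured after thinning or with 200 UMIs, and more with no minimum. Equal scaling kept the direction of all but 1 of the 76 pairs past 2-fold and left 30 of them under 2-fold; the reversed one was Egr1 in B-like cells between labels in normal diet, at 0.79, and the cause was not tested. In normal diet the split was 7 higher and 6 lower, against 3 and 4 with equal scaling and 6 and 8 with TMM scaling. TMM scaling lowered the label ratios of fibroblast-like cells in high fat diet by 0.30 and those of macrophage-like cells by 0.27 (normal diet) and 0.24 (high fat diet), where the median over all genes was 0.32, 0.31 and 0.25. Leaving out all shared barcodes kept every measured direction and left 4 of 74 pairs under 2-fold, Egr1 (0.70) and Atf3 (0.55) of macrophage-like cells in normal diet and Fosb of mesothelial-like cells between diets (-0.89) among them. Leaving out only the shallow copies left 0 of 75 pairs under 2-fold. No paired analysis was possible because each group is 1 library.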
